A study of Rattus norvegicus with 10 samples.

Results

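The data described here are the values of 5 long noncoding RNAs (lncRNAs) in the rat brain after focal ischemia: TCONS_00057827, TCONS_00023017, TCONS_00036789, TCONS_00111734 and TCONS_00076164. They are 5 of the 1924 lncRNAs that the authors assembled from their own reads (called assembled lncRNAs from here on), in a table of 32166 transcripts. They were chosen by their higher values in the right than in the left hemisphere in these same libraries, among assembled lncRNAs that the text of the study does not name. Their difference between the hemispheres is therefore given as a description, with no test.

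The libraries came from brain tissue of 5 male Sprague Dawley rats, named P45, P52, P61, P71 and P72, collected 24 hours after middle cerebral artery occlusion (MCAO), in which a suture is passed into the artery for a time and then withdrawn so that blood returns. One library was made from each hemisphere of every rat, which gave 5 left and 5 right libraries, and every animal had the occlusion, with no sham animal analysed here. The study took the tissue of each side from middle coronal slices and describes it as cortex. Hemisphere here means that tissue, not the whole hemisphere. The labels do not say which side was occluded. The study draws the suture on the right and takes transcripts higher on the right as upregulated by ischemia, so the right was treated there as the ischemic side, although its deficit scale names the right paw. The sides are called right and left throughout.

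Long noncoding RNAs are transcripts, often spliced, that lack a long open reading frame. Known members of this class work in the nucleus, where they recruit chromatin proteins or affect genes nearby, or in the cytoplasm, where they pair with messenger RNAs or bind microRNAs. Many are made at low levels and in few cell types. No function is known from the sources used here for any of the 5, and their identifiers are assembly names without gene symbols. The libraries were bulk tissue, in which more cells of a type and more RNA per cell cannot be told apart. The table identifies annotated transcripts by Ensembl identifier without symbols, so the tissue was not checked against cell type markers.

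Levels are given in FPKM, the number of fragments of a transcript scaled by its exonic length and by the mapped fragments of the library, as deposited. Differences are the right minus the left value of the same rat on the scale of log2(FPKM + 0.1), which understates the change of a transcript at low FPKM. The table holds no read counts. Relative depth was estimated from the commonest ratio of libraries among transcripts of low FPKM. It lay between 64.2% and 100% of the deepest library on the left and between 59.5% and 81.8% on the right, and the left library was the deeper one in 4 of 5 rats.

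The 5 lncRNAs lie on 5 chromosomes of the rn5 build and differ in structure. TCONS_00057827 lies on the plus strand of chromosome 2 (chr2:71196784-71198312), with exons of 720 and 188 nt around an intron of 621 nt. TCONS_00036789 lies on the plus strand of chromosome 14 (chr14:44862559-44864721), with exons of 55, 338 and 359 nt. TCONS_00111734 lies on the plus strand of chromosome 9 (chr9:116438906-116443783), with exons of 1323 and 475 nt around an intron of 3080 nt. No other listed lncRNA overlapped these 3.

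The other 2 shared their locus with listed transcripts of the same strand. TCONS_00023017 lies on the minus strand of chromosome 10 (chr10:47455347-47458611), with a first exon of 132 nt, an intron of 2048 nt and a second exon of 1085 nt. Its first exon shared 109 nt with the last exon of TCONS_00022486, a transcript of 2 exons that begins upstream, and its other 1108 nt were in no other listed lncRNA. TCONS_00076164 lies on the minus strand of chromosome 4 (chr4:7826783-7829464), with exons of 50, 43 and 984 nt. Both of its introns, of 541 and 1064 nt, were also introns of TCONS_00080661, a transcript of 4 exons, and 10 of its 1077 exonic nt were outside that transcript. The values of TCONS_00076164 and TCONS_00080661 therefore rest largely on how Cufflinks divided the same reads.

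**Figure D1:**
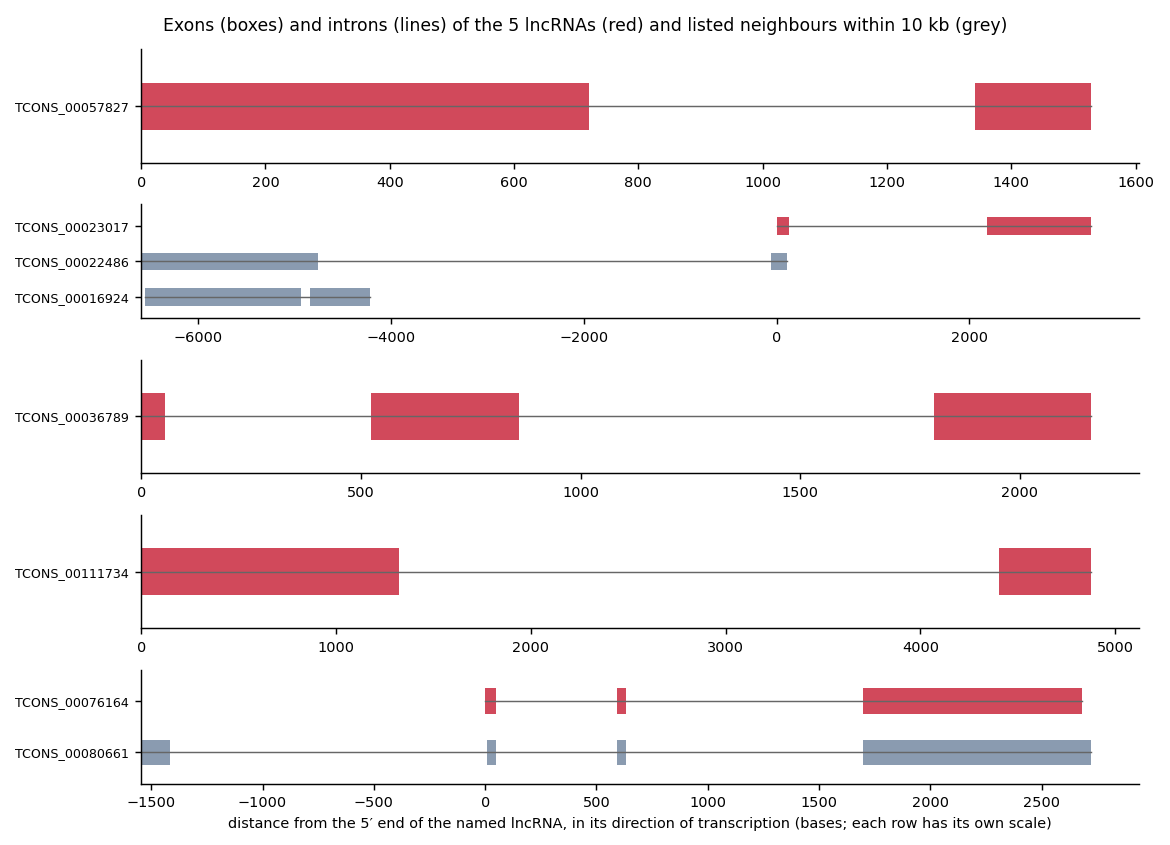
Exons (boxes) and introns (lines) of the 5 lncRNAs in red and of listed assembled lncRNAs within 10 kb of them in grey, against the distance in bases from the 5′ end of the red transcript, each panel on its own scale. The first exon of TCONS_00023017 meets the last exon of TCONS_00022486, whereas TCONS_00076164 lies almost wholly within exons of TCONS_00080661.

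In structure the 5 lay within the range of the assembled lncRNAs. Of the 5, 3 had 2 exons, as did 45.1% of the 1924, and 4 were shorter than the median of 1622 nt. TCONS_00036789 was the shortest, with 752 nt, and 14.9% of the assembled lncRNAs were shorter still. TCONS_00111734 was the longest, with 1798 nt, and 54.8% were shorter. Of the 5, 3 were the single listed lncRNA of their locus, against 18.6% of the 1924. Assembled transcripts that did not reach the list, and annotated genes at these positions, were not analysed here. Whether the libraries kept the strand is not given in the sources used here, so reads of an antisense gene cannot be told apart from those of these lncRNAs.

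TCONS_00057827 was below 0.1 FPKM in every left library and above it in every right library. On the left it was listed at 0 FPKM in P52, P61 and P71, at 0.0599 in P45 and at 0.0546 in P72. On the right it was at 1.04 FPKM in P45, 0.779 in P52, 0.680 in P61, 0.669 in P72 and 0.364 in P71. All right libraries were above all left libraries, and the lowest right value was 6.07 times the highest left value. The mean was 0.0229 ± 0.0314 FPKM on the left and 0.707 ± 0.243 FPKM on the right (SD, n = 5 each). The difference was 2.69 ± 0.41 (SD, n = 5), the smallest spread between rats of the 5 lncRNAs at a pseudocount of 0.1. All left values lay below that pseudocount, and with 0.01 the spread was not the smallest. In P52 and P71 the left library, listed at 0, was also the deeper one of the rat by the estimate above (85.6% against 77.6%, and 99.7% against 76.3%). In P61 it was the less deep one (64.2% against 68.1%).

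TCONS_00036789, also alone in its locus, was measurable on both sides. Its left values were 0.321 FPKM in P45, 0.387 in P52, 0.589 in P61, 0.279 in P71 and 0.210 in P72. Its right values were 1.26 FPKM in P45, 3.46 in P52, 3.17 in P61, 0.780 in P71 and 1.47 in P72. The sides did not overlap, but the margin was narrow, since the lowest right value (P71) was 1.32 times the highest left value (P61). Within a rat the right value was between 2.79 times (P71) and 8.93 times (P52) the left value. The difference was 2.07 ± 0.64 (SD, n = 5), from 0.357 ± 0.145 FPKM on the left to 2.03 ± 1.21 FPKM on the right.

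TCONS_00111734 was higher on the right in every rat, and 1 library stood far above all others. The left values were 0.0585 FPKM in P45, 0.0382 in P52, 0.171 in P61, 0.104 in P71 and 0.183 in P72. On the right, P61 was at 20.6 FPKM, and the other libraries were at 0.879 in P45, 1.40 in P52, 1.39 in P71 and 0.874 in P72. The sides did not overlap, with the lowest right value at 4.79 times the highest left value. The right mean of 5.03 ± 8.71 FPKM (SD, n = 5) was set by P61, while the right median was 1.39 FPKM. The difference was 3.40 ± 1.71 (SD, n = 5), and without P61 its mean was 2.68. The spread of the right libraries on the log2 scale, an SD of 1.86, was the largest of the 5 lncRNAs.

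TCONS_00023017 had the largest mean difference of all 1696 assembled lncRNAs tested with all rats and a pseudocount of 0.1, and the second largest, after TCONS_00111734, without P52 or P72. On the left it was listed at 0 FPKM in P52 and was at 0.0909 in P45, 0.0665 in P61, 0.0430 in P71 and 0.172 in P72. On the right it was at 4.40 FPKM in P72, 3.42 in P52, 3.30 in P61, 0.856 in P45 and 0.659 in P71. No value lay between 0.856 and 3.30, so P52, P61 and P72 were apart from P45 and P71, and all were above the left libraries. The difference was 3.65 ± 1.24 (SD, n = 5), between 2.32 in P45 and 5.14 in P52.

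TCONS_00076164 was the most abundant of the 5 and had the smallest difference. Its left values were 2.32 FPKM in P45, 2.15 in P52, 3.03 in P61, 2.09 in P71 and 3.35 in P72. Its right values were 9.997 FPKM in P45, 3.28 in P52, 8.60 in P61, 5.82 in P71 and 6.08 in P72. It was higher on the right in 5 of 5 rats, but the sides overlapped, because the right library of P52 was below the left library of P72. The difference was 1.28 ± 0.58 (SD, n = 5), the 38th highest among the assembled lncRNAs. It ranked 9th with a pseudocount of 1, 138th with 0.01 and between 39th and 72nd with 1 rat left out. The difference of TCONS_00076164 in P52, the smallest of all, was 0.59.

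**Figure D2:**
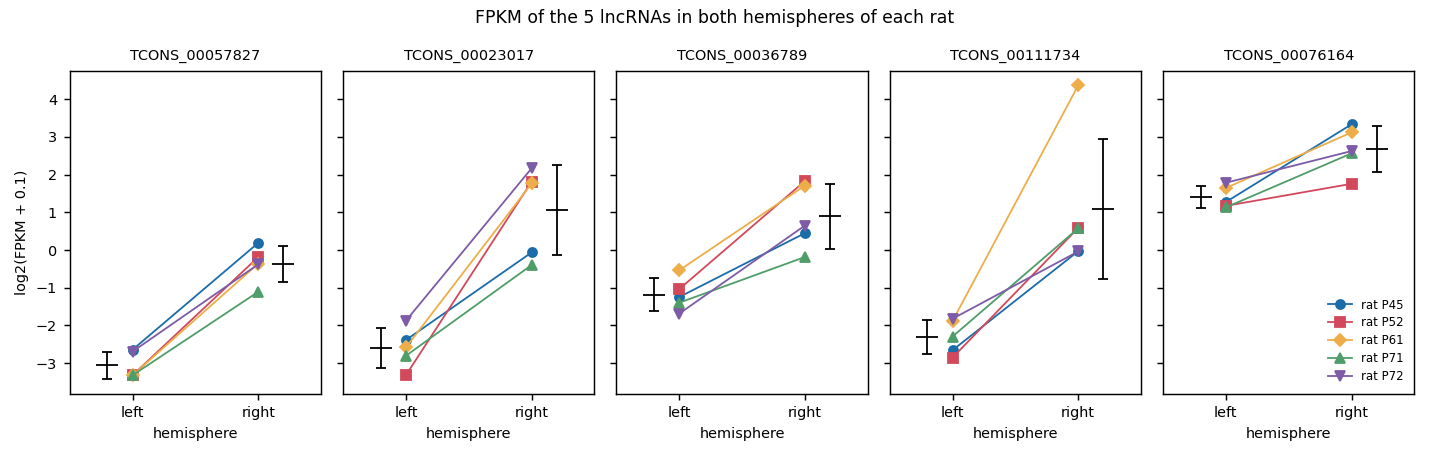
FPKM of each lncRNA on the log2(FPKM + 0.1) scale in the left and right hemisphere, with a line for each rat and the mean ± SD of the 5 libraries of a side in black. Every line is higher on the right, and the right library of P61 stands apart for TCONS_00111734 at 20.6 FPKM.

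The rats did not keep 1 order across the 5 lncRNAs. Among the right libraries P71 was the lowest for TCONS_00057827, TCONS_00023017 and TCONS_00036789, P72 for TCONS_00111734 and P52 for TCONS_00076164. The highest right library was that of P45 for TCONS_00057827 and TCONS_00076164, P72 for TCONS_00023017, P52 for TCONS_00036789 and P61 for TCONS_00111734. With 5 libraries on a side, correlations within a side were not computed.

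On the left, 4 of the 5 were below the median assembled lncRNA, whose mean was 0.559 FPKM. On the right all 5 were above the median of 0.507 FPKM. TCONS_00057827 was above 6.19% of the assembled lncRNAs on the left and above 59.9% on the right. TCONS_00111734 was above 14.8% on the left and 94.0% on the right, and TCONS_00023017 above 10.7% and 88.5%. Without P61 the right value of TCONS_00111734 was above 72.8%. TCONS_00036789 was above 36.3% on the left and 85.2% on the right. TCONS_00076164 was already above 87.5% on the left and was above 95.2% on the right. By the mean difference, TCONS_00023017 ranked 1st, TCONS_00111734 2nd, TCONS_00057827 4th and TCONS_00036789 8th among the 1696 assembled lncRNAs tested. Without P61 TCONS_00111734 ranked 6th. It ranked 1st and TCONS_00023017 2nd without P52, without P72 and with a pseudocount of 1. With a pseudocount of 0.01 TCONS_00057827 ranked 2nd and TCONS_00036789 33rd, and with 1 they ranked 15th and 8th. Among all 20936 transcripts tested TCONS_00023017 was 37th and TCONS_00076164 was 825th.

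**Figure D3:**
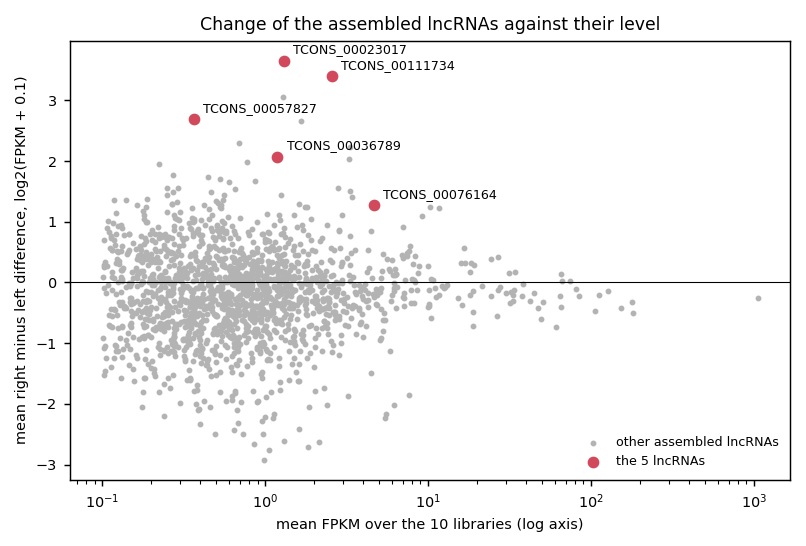
Mean right minus left difference of log2(FPKM + 0.1) over 5 rats against the mean FPKM over 10 libraries, on a log axis, for the 1696 assembled lncRNAs tested (grey) and the 5 described here (red). TCONS_00023017 is at the top, at 3.65 with all 5 rats, and TCONS_00076164 is the most abundant of the red points.

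For the background, the same comparison was fitted across the 20936 transcripts whose FPKM averaged 0.1 or more over the 10 libraries, with the rat as a block (limma, Benjamini-Hochberg adjusted p under 0.05). The fit called 7.71% of them, 1155 higher on the right and 459 lower, and with FPKM rescaled to TPM the split was 1325 and 297. All 5 lncRNAs were called higher on the right, which is how they were chosen, against 5.52% of all transcripts and 0.825% of the assembled lncRNAs. Every right library was above every left library for 4 of the 5 and for 6.41% of all transcripts. Nothing is read from these counts, since the rule used this contrast. Without moderation of the variance across transcripts 1 of the 5 was called, and with 1 rat left out between 1 (without P45) and 5 (without P72) were. P52 or P61 left out gave 2, and P71 left out gave 3. With no filter on low values 3 were called, and with a pseudocount of 1 there were 4. A pseudocount of 0.01, the other scalings and no block gave 5.

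The other transcripts at the locus of TCONS_00023017 were not used to choose it. However, TCONS_00022486 shares 109 nt of exon with it, where Cufflinks divided the same reads, so its values are not independent of TCONS_00023017. TCONS_00022486, which ends where TCONS_00023017 begins, was at 1.62 FPKM in P45, 2.23 in P52, 2.17 in P61, 2.45 in P71 and 2.0 in P72 on the left. On the right it was at 3.01 FPKM in P45, 3.92 in P52, 3.56 in P61, 1.51 in P71 and 4.21 in P72. It was higher on the right in 4 of 5 rats and lower in P71, with a difference of 0.54 (standard error 0.28, adjusted p = 0.268 from limma) that did not pass the test, and that was 0.84 without P71. TCONS_00016924, a transcript of 2 exons whose end lies 4.2 kb upstream of TCONS_00023017, had a difference of -0.62 (standard error 0.41, adjusted p = 0.39 from limma), which was -0.20 without P45.

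TCONS_00023017 made up a small part of the FPKM of its locus on the left and a large part on the right. Of the 3 listed transcripts it held between 0% (P52) and 6.78% (P72) of the summed FPKM on the left. On the right it held 21.5% in P45, 41.3% in P52, 46.1% in P61, 24.0% in P71 and 49.4% in P72. The sum was 2.89 ± 0.469 FPKM on the left and 6.21 ± 2.71 FPKM on the right (SD, n = 5 each), a difference of 0.96 ± 0.76. It was lower on the right in P71, where the sum went from 3.06 to 2.74 FPKM. With the overlapping pair alone, a choice made after seeing the data, the difference was 1.23 ± 0.84 (SD, n = 5). Because the member is part of the sum, no test was made.

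At the locus of TCONS_00076164 the summed FPKM separated the sides where the single transcript did not. The sum contains TCONS_00076164, which was chosen by this contrast, so the separation is a description and no test was made. TCONS_00076164 held at least 70.4% of the sum on the left and 41.3% on the right, both lowest in P52. TCONS_00080661 itself swung widely, from 0.0000205 FPKM in P45 to 0.905 in P52 on the left and from 0.0000278 FPKM in P71 to 4.66 in P52 on the right. It was higher on the right in 3 of 5 rats, by 0.81 on average (adjusted p = 0.533 from limma, standard error 0.74), which was 0.31 without P45 and 1.56 without P71. The sum of both transcripts was 2.32 FPKM in P45, 3.06 in P52, 3.62 in P61, 2.46 in P71 and 4.17 in P72 on the left, and 10.6, 7.94, 9.16, 5.82 and 8.24 FPKM in the same rats on the right. The lowest right sum, in P71, was above the highest left sum, in P72. The difference of the sum was 1.40 ± 0.44 (SD, n = 5), between 0.97 in P72 and 2.15 in P45. In P52, the rat with the smallest difference of TCONS_00076164, this transcript held 41.3% of the right sum, and the sum differed by 1.35.

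**Figure D4:**
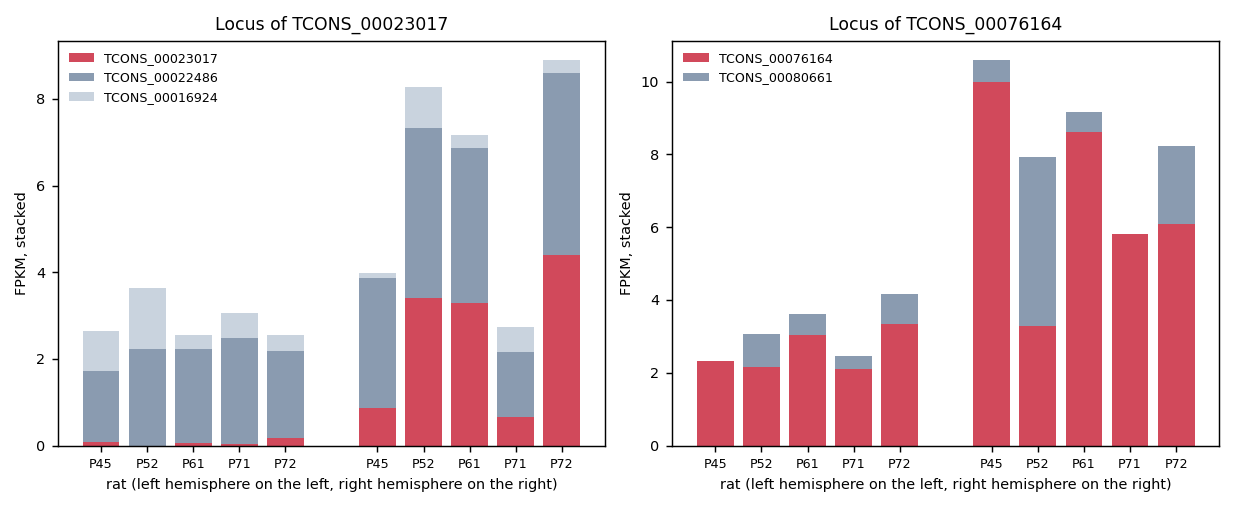
Stacked FPKM of the listed same-strand transcripts at the loci of TCONS_00023017 and TCONS_00076164 in the 5 left and 5 right libraries, with the named lncRNA in red. The red part of the chromosome 10 locus is at most 6.78% on the left and at least 21.5% on the right, and the stacks of the chromosome 4 locus do not overlap between the sides.

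All assembled lncRNAs within 1 Mb were also compared, chosen by position alone. The overlapping TCONS_00022486 and TCONS_00080661 are among them, and they share exons with the lncRNAs described. There were 9 in all, 2 near TCONS_00057827, 2 near TCONS_00023017 and 5 near TCONS_00076164, and none near TCONS_00036789 or TCONS_00111734. By limma, 0 of the 9 passed an adjusted p of 0.05, against 1.47% of the assembled lncRNAs and 7.71% of all transcripts, so a count of 0 is near the background. At an unadjusted p of 0.05, 0 passed, against 12.1% of the assembled lncRNAs and 26.6% of all transcripts, and 1 passed without P52 and 2 without P71. Without moderation of the variance 0 were called as well. Of the 9, 6 had a positive difference and 3 a negative one, with a median of 0.54. The difference was positive for 39.6% of the assembled lncRNAs, with a median of -0.16, and for 48.8% of all transcripts tested, with a median of -0.01. The 9 are not separate loci, so their signs and median are a description only. TCONS_00081306, TCONS_00080336, TCONS_00076174 and TCONS_00076175 overlap one another, and without P71 they were at 0.16, -0.06, 0.26 and -0.024. The pair near TCONS_00057827, on the same strand about 150 kb upstream, went in opposite directions, with 0.61 (standard error 0.35, adjusted p = 0.316 from limma) for TCONS_00055422 and -0.48 (standard error 0.47, adjusted p = 0.56 from limma) for TCONS_00059095. The latter was -0.11 without P52 and -0.90 without P71, and the former was 0.94 without P52 and 0.37 without P61. A p that misses the threshold does not show that they were equal on both sides.

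**Figure D5:**
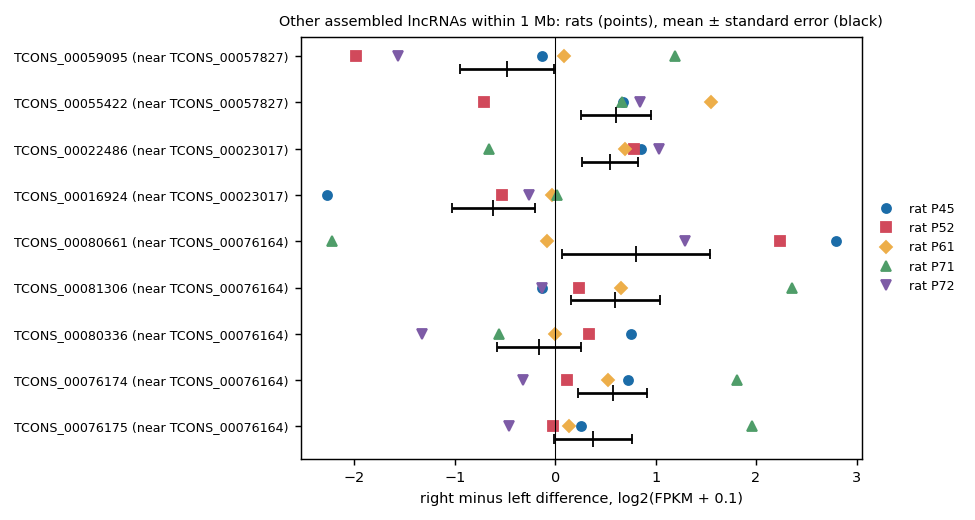
Right minus left difference of log2(FPKM + 0.1) in each rat (points) for the 9 other assembled lncRNAs within 1 Mb of the lncRNAs described, with limma's mean ± standard error in black. The rats lie on both sides of 0 for all 9, and P71 is the highest for 3 of the 4 transcripts about 0.9 Mb from TCONS_00076164.

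Profiles were compared by the root mean square distance between log2(FPKM + 0.1) values, each transcript centred on its own mean over the 10 libraries. All points share the contrast on which the lncRNAs were chosen, so the distances are a description. Among 1695 other assembled lncRNAs, those nearest to TCONS_00057827 were TCONS_00068312 on chromosome 3, at a distance of 0.72, and TCONS_00064295 on chromosome 20, at 0.73. TCONS_00057827 was in turn the nearest to TCONS_00023017, at 0.90, followed by TCONS_00036345 on chromosome 14, at 0.91. TCONS_00036789 was nearest to TCONS_00060395 on chromosome 2 (0.54) and TCONS_00010094 on chromosome 1 (0.56). The closest to TCONS_00111734 were TCONS_00009600 on chromosome 1, at 1.06, and TCONS_00023017, at 1.22. No cutoff for a near profile was set. TCONS_00076164 was nearest to TCONS_00088935 on chromosome 5 (0.42) and TCONS_00044876 on chromosome 16 (0.46). Left means of TCONS_00088935 and TCONS_00010094 were below the pseudocount, at 0.0593 and 0.0779 FPKM, and their right means were 0.185 and 0.470 FPKM. The distances were not recomputed with another pseudocount.

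Distances to annotated transcripts were taken in the same way, and as far more of them were compared, a smaller minimum carries no information. Over the 19240 Ensembl transcripts tested, the smallest distance was 0.31 for TCONS_00057827, 0.48 for TCONS_00023017, 0.27 for TCONS_00036789, 0.78 for TCONS_00111734 and 0.23 for TCONS_00076164. The nearest to TCONS_00036789 was ENSRNOT00000066331, at a mean of 1.05 FPKM on the left and 5.89 FPKM on the right. The nearest to TCONS_00057827 was ENSRNOT00000010594, at a mean of 0.342 FPKM on the left and 1.90 FPKM on the right. Gene names for both identifiers are not given in the sources used here.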

How the data were processed

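RNA sequencing of both hemispheres of 5 rats was analysed. Mapping by the authors used TopHat and the rn5 build, and Cufflinks built and quantified the transcripts. They deposited FPKM for every transcript in each library, not pooled, and the exon positions of the assembled lncRNAs. FPKM values are not counts, so no count model or counting interval was used.

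log2(FPKM + 0.1) was computed, and limma 3.58.1 in R 4.3.3 (lmFit, eBayes with a trend, Benjamini-Hochberg adjustment) was fitted across all 20936 transcripts whose FPKM averaged 0.1 or more, with a block for the rat, since each animal gave both libraries. Deviations of both sides of a rat correlated between -0.13 and 0.18, and those of a left and a right library of different rats at -0.0082 on average. The fit was run on simulated normal values without a rat effect, and the depth estimate on simulated random counts. Neither simulation held reads shared between overlapping transcripts, so neither covers such values. Figures were made with matplotlib 3.10.9 in Python 3.11.15.

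The 5 lncRNAs and the rules were chosen with earlier results of these data known. Named besides them are all assembled lncRNAs within 1 Mb and the 2 nearest profiles of each. Alternatives were other pseudocounts, filters and scalings, no block, no moderation, other locus sums and leaving out each rat. Injury and cell type marker lists were not applied, since neither the deposited files nor the reference tables used here give symbols for the Ensembl identifiers. No sequence is shown, since no rn5 genome was used here. The miRNA libraries were not analysed here.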

Additional observations from a re-analysis of the deposited data

Results flagged for a closer look

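Dixon's ratio, the gap of an extreme library over the range of its group, was taken on FPKM and not on the log2 scale. It was above its critical value of 0.71 in 5 of 28 groups (14 transcripts on each side), where a rate of 1 in 20 gives 1.4. That rate assumes independent groups of normally distributed values. Some groups here are of overlapping transcripts, and FPKM can be skewed, so nothing is read from the count. TCONS_00111734 was at 20.6 FPKM in the right library of P61 and at 0.874 to 1.40 FPKM in the other right libraries (ratio 0.973). No other of the 5 lncRNAs had such a library.

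The other 4 were lncRNAs within 1 Mb. TCONS_00059095 was at 7.40 FPKM in the left library of P52, against 2.23 to 2.90 FPKM (ratio 0.871). The right library of P71 was the highest for TCONS_00081306 (1.56 FPKM against 0.223 to 0.531, ratio 0.769), TCONS_00076174 (3.13 FPKM against 0.687 to 1.17, ratio 0.8) and TCONS_00076175 (2.49 FPKM against 0.528 to 1.01, ratio 0.757), whose spans overlap on chromosome 4. Their cause was not tested.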

How the results depend on the processing

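The 5 lncRNAs stayed higher on the right in all 45 recomputed differences. The size depended on the pseudocount most where the left values lie near or below it. TCONS_00076164, at 2.09 FPKM or more on the left, gave 1.31 with 0.01 and 1.05 with 1. TCONS_00036789 gave 2.33 with 0.01. With 0.01 the difference was 4.99 for TCONS_00057827 and 5.04 for TCONS_00023017. With 1 it was 0.73 for TCONS_00057827, 1.56 for TCONS_00023017, 1.07 for TCONS_00036789 and 1.60 for TCONS_00111734. With FPKM rescaled to TPM, which makes the pseudocount smaller against the values, TCONS_00057827 gave 3.43. With each rat left out in turn TCONS_00057827 lay between 2.58 and 2.81, TCONS_00023017 between 3.28 and 3.99, TCONS_00036789 between 1.87 and 2.29, TCONS_00111734 between 2.68 and 3.80 and TCONS_00076164 between 1.08 and 1.45. The locus sums lay between 0.76 and 1.24 on chromosome 10 and between 1.21 and 1.5 on chromosome 4, and requiring exonic overlap gave the same sums. The spread between rats depended on the pseudocount too. With 0.01 the limma standard error was 0.73 for TCONS_00057827, 0.81 for TCONS_00023017 and 0.68 for TCONS_00111734. It was smaller for TCONS_00036789 (0.34) and TCONS_00076164 (0.24).

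The number of transcripts called, 1614, was 521 without moderation of the variance and 2148 with no replicate block, that is, without pairing the sides of a rat. With 1 rat left out it was between 262 and 1752: 262 without P45, 360 without P52, 380 without P61 and 846 without P71. None of the 9 lncRNAs within 1 Mb was called in any of the 113 values recomputed for them, and the lowest adjusted p was 0.0612 (TCONS_00022486 without P71, limma). With each rat left out TCONS_00080336 lay between -0.39 and 0.13, positive without P72, and TCONS_00076175 between -0.024 and 0.58, negative without P71. Without P71 TCONS_00081306 was 0.16 and TCONS_00076174 0.26. Read counts were not available from FPKM, so the precision of values below 0.1 FPKM is unknown.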
